A study of Mus musculus with 8 samples.

Results

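CD8 T cells were followed in mouse tumors grown from FC1242, a pancreatic cancer line of the KPC model, in the liver and in the pancreas. Cells were taken from 2 single-cell libraries of sorted CD45+ cells, 1 from metastatic liver tumors and 1 from primary pancreatic tumors. A barcode counted as a CD8 T cell when it carried 1500 or more UMIs (unique molecular identifiers, the counted transcripts) from 200 or more genes with no more than 10% of them mitochondrial, when at least 2 of the 5 T cell receptor complex genes Cd3d, Cd3e, Cd3g, Trac and Trbc2 and at least 1 of Cd8a and Cd8b1 were detected, and when Cd4 was at 0. Barcodes rich in macrophage C1q transcripts (10 or more per 10000 UMIs) or in Krt8, Krt18 and Krt19 (20 or more per 10000) were left out. This rule found 94 CD8 T cells among 7618 called cells of the liver library and 104 among 2277 of the primary library, 198 of 9895 in all.

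The mice were C57BL/6, carried no engineered allele named in the labels, received 100000 FC1242 cells, and were sampled after 3 weeks. The groups were metastatic liver tumors and primary tumors of the pancreas, each with 1 single-cell library and with 3 bulk libraries of whole tumor tissue. The labels give no age, sex or number of mice behind a single-cell library, and do not say whether bulk replicates came from separate mice, so p-values measure the spread between these samples only. The single-cell libraries held 161890665 UMIs (liver) and 82083967 UMIs (primary) over all barcodes, and the bulk libraries 27481390 to 36743247 reads. With 1 single-cell library per site no test between sites was possible on cells, and a difference between these libraries cannot be told apart from a difference between the sites. Intervals on single-cell levels are exact Poisson intervals and those on shares exact Clopper-Pearson intervals, at the 95% level, and they hold counting error alone.

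CD8 T cells recognise peptides on class I major histocompatibility molecules, with the Cd8a and Cd8b1 chains as co-receptor. Once activated they kill target cells by releasing perforin and granzymes and they recruit other leukocytes with chemokines such as Ccl3, Ccl4 and Ccl5. Under lasting antigen exposure in tumors they are known to express inhibitory receptors such as Pdcd1, Lag3 and Havcr2 and the transcription factor Tox, and to lose genes of the naive state such as Tcf7 and Ccr7.

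Much of what follows turns on Gzma, Ccl1 and Ctla4. They are shown with the 250 bases upstream of their RefSeq start (GRCm38.p6, printed along the gene's strand), so that the genes the results turn on can be seen. Gzma (granzyme A, a granule protease) lies on the minus strand with its window at chr13:113100982-113101231. Ccl1 (a chemokine that binds Ccr8) lies on the minus strand with its window at chr11:82179813-82180062. Ctla4 (an inhibitory receptor that competes with Cd28 for its ligands) lies on the plus strand with its window at chr1:60908775-60909024. Capitals mark GGAAA on either strand, the core that NFAT factors of T cell activation bind.
Gzma: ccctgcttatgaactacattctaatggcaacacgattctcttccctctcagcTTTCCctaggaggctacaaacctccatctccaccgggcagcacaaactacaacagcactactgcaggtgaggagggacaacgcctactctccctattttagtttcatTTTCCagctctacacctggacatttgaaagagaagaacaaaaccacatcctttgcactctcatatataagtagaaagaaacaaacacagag
Ccl1: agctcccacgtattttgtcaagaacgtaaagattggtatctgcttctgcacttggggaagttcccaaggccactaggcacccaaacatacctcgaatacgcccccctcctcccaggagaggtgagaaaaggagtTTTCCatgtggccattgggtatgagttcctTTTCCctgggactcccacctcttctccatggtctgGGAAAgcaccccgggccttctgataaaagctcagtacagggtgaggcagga
Ctla4: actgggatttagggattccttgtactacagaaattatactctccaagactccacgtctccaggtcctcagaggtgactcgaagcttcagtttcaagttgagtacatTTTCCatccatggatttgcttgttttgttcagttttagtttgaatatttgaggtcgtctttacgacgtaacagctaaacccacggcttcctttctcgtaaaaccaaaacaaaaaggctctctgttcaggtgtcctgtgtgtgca
The core stood 2 times upstream of Gzma, 3 times upstream of Ccl1 and 1 time upstream of Ctla4. It is a short motif that 55.6% of 32851 such windows in the table held, so its presence does not set these genes apart. TGANTCA, the AP-1 motif, stood in none of the 3 windows and in 6.75% of all windows. TGTGGT, the RUNX core, stood 1 time upstream of Gzma, and in 14.05% of all windows on either strand.

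The genes of the rule were detected together in nearly every member. Both Cd8a and Cd8b1 were detected in 91 of 94 liver cells and 102 of 104 primary cells, and no member rested on a lone Cd8 UMI. All 5 receptor complex genes were detected in 82 of 94 liver cells and 96 of 104 primary cells, and no member had only 2. These are the values that chose the cells and are given as a description. Just outside the rule lay cells over the C1q limit (5 liver, 11 primary), over the keratin limit (10 liver, 1 primary) and between 10% and 20% mitochondrial UMIs (7 liver, 14 primary). The members nearest those limits held 7.85 C1q and 19.8 keratin UMIs per 10000 in liver and 7.76 and 3.46 in primary, and the nearest cells outside held 44.1 and 21.1 in liver and 10.6 and 131 in primary. Among cells over the C1q limit, a macrophage feature, Cd8a or Cd8b1 was detected in 1.41% of 2630 liver cells (median 11460 UMIs) and 2.58% of 1472 primary cells (median 13925 UMIs) (with 2 or more of the 5 receptor complex genes in 0.418% of the liver and 0.815% of the primary cells over that limit). The libraries shared 7 called barcodes and no member barcode.

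CD8 T cells made up 1.23% of called liver cells (interval 0.998% to 1.51%) and 4.57% of called primary cells (3.75% to 5.51%). The liver library held 3192 called cells over the keratin limit alone despite the CD45 sort, against 266 in primary, and these count in the denominator. Within T cells the CD8 share was 83.2% of 113 liver T cells (74.99% to 89.6%) and 90.4% of 115 primary T cells (83.5% to 95.1%), and these intervals overlap. Depth differed: the cells held a median of 7257.5 UMIs in liver (lowest 3348, highest 18829) and 10936 in primary (lowest 1968, highest 54319). In primary, 19 of the 104 cells held over 20000 UMIs and carried 41.0% of all UMIs of the group, and no liver cell passed that depth. Levels below are UMIs summed over the CD8 T cells of a library and scaled to 1000000 (CPM). Shares of cells with a transcript are given at full depth and, where stated, after each cell was thinned to 1500 UMIs.

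Over 6979 genes with at least 30 UMIs and outside the rule, 2.54% were at least 2-fold higher in liver CD8 T cells and 4.6% at least 2-fold lower, with a median log2 difference of -0.08. Of these genes, 1.72% were higher and 2.26% lower with intervals that did not overlap. In thinned cells 4.34% of 1451 genes were higher and 6.48% lower. Genes named below as 2-fold higher or lower are read against those shares, and no difference between the sites in these cells has a replicate check.

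Among granule genes Gzma was higher in liver and several others were lower. Nkg7, a granule membrane protein needed for degranulation, was detected in every cell of both libraries at 1829 CPM in liver and 2029 CPM in primary. Gzma stood at 1533 CPM in liver (1446 to 1623) and 111 CPM in primary (94.7 to 130), a log2 difference of 3.78. It was not a general property of liver cells: 24 of 94 liver cells and 12 of 104 primary cells held a Gzma UMI, the highest cell held 372 per 10000 in liver and 36.0 in primary, and the 5 highest cells carried 72.1% of Gzma UMIs in liver and 94.97% in primary. At 1500 UMIs 21.3% of liver cells and 4.81% of primary cells remained positive. NK cells also make Gzma. Of 10 NK cell markers, Gzma among them, 3 were at 0 UMIs in liver CD8 T cells (Ncr1, Klra8 and Klra9) and 4 in primary (those and Klra4). Klrb1c had 9 UMIs in 3 liver cells and 4 UMIs in 2 primary cells. The other members were present: Klre1 had 44 UMIs in liver and 146 in primary, Eomes 20 in liver and 52 in primary, Fcer1g 120 in liver and 138 in primary, and Tyrobp 51 in liver and 41 in primary. The part of NK cells in the Gzma level was not tested.

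Gzmb, the granzyme that activates caspases in target cells, stood at 193 CPM in liver and 314 CPM in primary, and was detected in 28.7% of liver and 53.8% of primary cells (15.96% of liver cells and 26 of 104 primary cells at 1500 UMIs). Prf1, the pore-forming perforin, stood at 178 CPM in liver and 263 CPM in primary. A single deep primary cell carried 141 of the 448 Gzmb UMIs and 88 of the 375 Prf1 UMIs of that library. The higher summed levels of both genes in primary rest in part on it. Gzmk was at 105 CPM in liver and 81.9 CPM in primary. Gzmc and Gzmf had 0 UMIs in liver and 63 and 46 UMIs in primary, at least 11.3-fold and 8.21-fold lower in liver with 0 set to 3 counts. In primary, however, 1 other cell carried 62 of the 63 Gzmc UMIs and 36 of the 46 Gzmf UMIs. Serpinb9 and Serpinb6b, protease inhibitors of the serpin family (Serpinb9 inhibits granzyme B), were lower in liver at 49.7 and 69.3 CPM, against 141 and 184 CPM in primary. Of 15 tested granule genes 1 was 2-fold higher in liver and 4 were 2-fold lower.

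**Figure D1:**
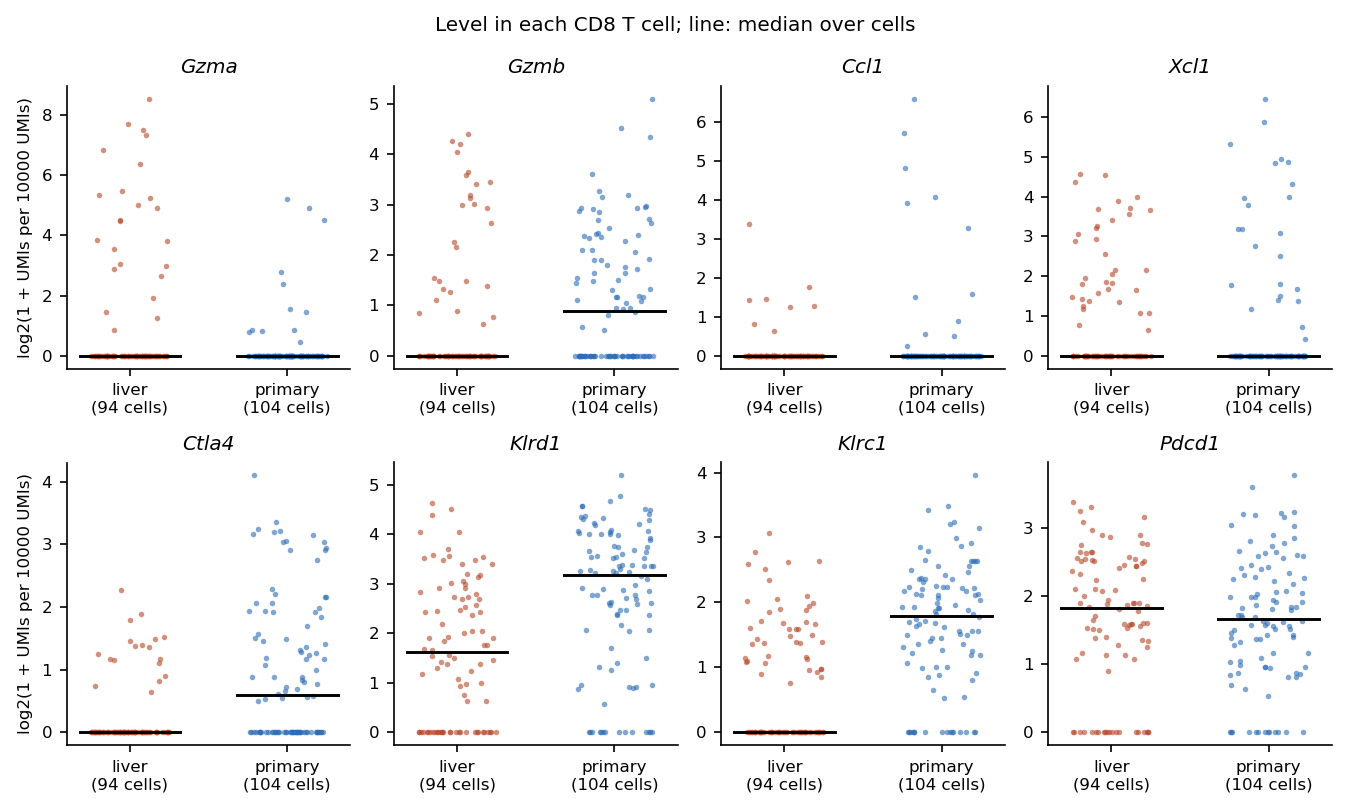
Level of 8 genes in each CD8 T cell of the liver library (94 cells, left) and the primary library (104 cells, right), as log2 of 1 plus UMIs per 10000; each point is a cell and the line is the median over cells. Gzma, Ccl1 and Xcl1 sit at 0 in most cells with a few very high ones. For Klrd1 and Klrc1 the median over cells lies lower in liver while the clouds overlap, and the Pdcd1 cloud does not lie lower in liver.

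Among secreted factors, Ccl5 was the most abundant at 4443 CPM in liver and 4278 CPM in primary. The closeness of these sums depends on the 19 deep primary cells, which carried 41.0% of the primary UMIs. None of them held more than 48 Ccl5 UMIs, while the highest primary cell held 461 at a depth of 14963 UMIs. Ccl4, a chemokine that attracts other leukocytes, stood at 781 CPM in liver and 1650 CPM in primary. Its level rested on few cells: the 2 highest carried 44.4% of its UMIs in primary and 25.6% in liver. Ccl3 stood at 527 CPM in liver and 732 CPM in primary, and Ifng at 82.3 CPM in liver and 118 CPM in primary. Ccl1 was the most uneven: 27.4 CPM in liver from 8 cells and 456 CPM in primary from 12 cells, of which 5 carried 94.8% of its UMIs. Its log2 difference was -4.06, and -1.70 without the 19 deep primary cells. Xcl1, the ligand of Xcr1 on cross-presenting dendritic cells, stood at 255 CPM in liver and 781 CPM in primary, yet more liver cells (38.3%) than primary cells (23.1%) held it. Its direction turned over without the 19 deep primary cells, to a log2 difference of 0.30 in place of -1.62. Every liver cell with Ccl1 and 10 of the 12 primary cells with Ccl1 also held Xcl1. Of 10 tested secreted factors none was 2-fold higher in liver and 3 (Ccl4, Xcl1, Ccl1) were 2-fold lower.

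Inhibitory receptors were widespread at both sites. At least 1 of Pdcd1, Lag3 and Havcr2 was detected in 92.6% of liver and 97.1% of primary cells, and at 1500 UMIs in 66.0% and 70.2%. Pdcd1 (PD-1) stood at 284 CPM in liver and 265 CPM in primary, and Tox at 427 CPM in liver and 400 CPM in primary. Lag3, a receptor for class II molecules, stood at 247 CPM in liver and 353 CPM in primary. Havcr2 (TIM-3) stood at 140 CPM in liver (115 to 169) and 88.2 CPM in primary (73.5 to 105). Pdcd1 and Tox were detected together in 71.3% of liver and 82.7% of primary cells, and at 1500 UMIs in 23.4% and 23.1%.

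Ctla4 departed from this pattern. It stood at 28.7 CPM in liver (18.0 to 43.5) and 132 CPM in primary (113 to 152), a log2 difference of -2.19. The difference was spread over cells: 18 of 94 liver cells and 57 of 104 primary cells held a Ctla4 UMI, and at 1500 UMIs 5.32% of liver cells (1.75% to 11.98%) and 26.9% of primary cells (18.7% to 36.5%). Without the deep primary cells the log2 difference was -2.69. Nt5e (CD73, which makes adenosine) was also over 2-fold lower at 37.9 CPM in liver and 95.2 CPM in primary. In all, 2 of 15 tested inhibitory receptors were 2-fold lower in liver and none was higher. At full depth Btla and Cd200, the pair named in the series title for B cells, were detected in 4.26% and 21.3% of liver CD8 T cells and in 8.65% and 35.6% of primary CD8 T cells. At 1500 UMIs Btla was detected in 1.06% of liver and 0.96% of primary cells. Cd200 turned over at that depth, to 7.45% of liver cells (3.05% to 14.7%) and 2.88% of primary cells (0.60% to 8.20%), and those intervals overlap.

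Of the costimulatory receptors, Icos alone among 14 tested genes passed 2-fold, at 32.7 CPM in liver and 89.6 CPM in primary. Tnfrsf9 (4-1BB), a receptor induced by antigen, stood at 294 CPM in liver and 366 CPM in primary, and Cd27 at 204 CPM in liver and 195 CPM in primary.

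The transcription factor list held the largest number of lower genes, 8 of 26 with none higher. These were Nr4a1 and Nr4a3, induced by receptor signaling, Tbx21 (T-bet) and Prdm1 (Blimp-1), which drive effector differentiation, and Runx2, Bhlhe40, Rora and Hopx. Prdm1 stood at 20.9 CPM in liver and 63.0 CPM in primary, with 15 of 94 liver and 52 of 104 primary cells positive at full depth. Hopx stood at 22.2 CPM in liver and 85.4 CPM in primary, with 17.0% of liver and 54.8% of primary cells positive at full depth. Its log2 difference was -1.94, and -1.76 in thinned cells. Without the deep primary cells the list had 10 of 26 lower and none higher, beside 7.08% lower of 6031 genes. In thinned cells only 1 of 11 tested transcription factors was lower and none higher, beside 6.48% lower of 1451 genes. In the receptor signaling list none of 22 genes passed 2-fold either way.

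The NK type receptors Klrd1 (CD94) and Klrc1 (NKG2A), which pair into an inhibitory receptor for Qa-1, were lower together in liver. Klrd1 stood at 321 CPM in liver (283 to 364) and 877 CPM in primary (829 to 927), and Klrc1 at 111 CPM in liver (88.7 to 137) and 239 CPM in primary (214 to 265). Both were detected in the same cell in 36.2% of liver and 76.0% of primary cells, and at 1500 UMIs in 6.38% and 16.3%. Their deviation was again spread over cells, with the 5 highest cells carrying 21.5% of Klrd1 UMIs in either library. Cracr2a, a calcium-binding protein that regulates store-operated calcium entry in T cells, was detected in 3 of 94 liver cells and 44 of 104 primary cells, at 3.92 CPM in liver and 39.9 CPM in primary. At 1500 UMIs 1.06% of liver and 6.73% of primary cells remained positive for Cracr2a. Of the cytokine receptors, Il2ra passed 2-fold, at 9.15 CPM in liver and 32.9 CPM in primary, and Il2rb, the beta chain shared by the receptors of IL-2 and IL-15, stood at 670 CPM in liver and 1135 CPM in primary.

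**Figure D2:**
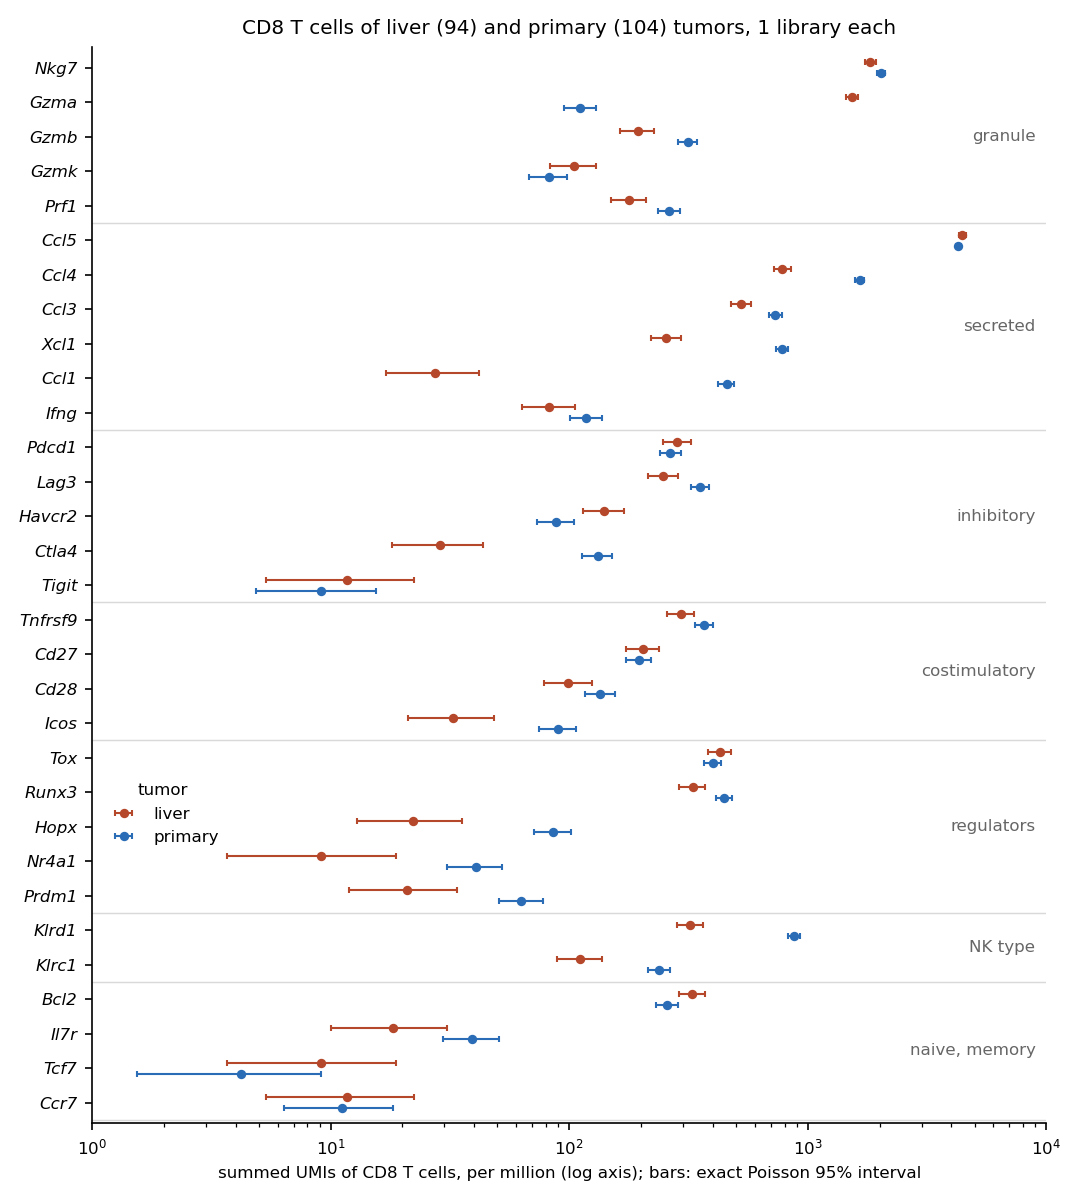
Summed UMIs as CPM (log axis) of 31 genes in CD8 T cells of the liver library and the primary library, grouped by role; points are the level in the 1 library of each site and bars the exact Poisson 95% interval. Pdcd1, Tox, Ccl5 and Cd27 lie together in these sums, for Ccl5 only with the deep primary cells included. Ctla4, Ccl1, Hopx, Icos and Klrd1 lie lower in liver and Gzma higher.

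Naive genes were close to absent. Tcf7 had 7 UMIs in liver and 6 UMIs in primary, Lef1 had 4 in liver and 8 in primary, and Ccr7 had 9 in liver and 16 in primary. Cxcr6, a chemokine receptor of tissue T cells, was in contrast detected in 88.3% of liver and 93.3% of primary cells at 457 CPM in liver and 437 CPM in primary.

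Gamma chain transcripts were frequent without delta chains. Tcrg-C2 was detected in 46.8% of liver and 45.2% of primary cells, and Trgv2 in 32.98% of liver and 31.7% of primary cells, whereas Trdc had 0 UMIs in either group. For 94 liver cells 0 allows a share of cells with a Trdc UMI of up to 3.85%, and for 104 primary cells up to 3.48%, by the Clopper-Pearson bound. Variable segment transcripts were scarce in these 3' libraries, with a Trbv UMI in 17 liver cells and 25 primary cells. Trbv20 accounted for 10 of the 17 in liver, and Trbv2 for 9 and Trbv12-2 for 6 of the 25 in primary. Of the 10 liver cells with Trbv20, 9 held Pdcd1 and 2 held Gzma, beside 74 and 24 of all 94 liver cells.

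The other lists held few genes past 2-fold, most of them lower in liver, and are read against the shares of 2.54% higher and 4.6% lower over all genes. Of the NK type receptors 1 of 9 tested genes was 2-fold higher in liver (Tyrobp) and 2 were lower, and of naive and memory genes 2 of 8 were higher and 1 (Il7r) lower. Among residency and homing genes 1 of 16 was higher and 2 lower, among cytokine receptors none of 14 was higher and 1 lower, among gamma-delta genes none of 3 passed, and among regulatory and helper genes 2 of 5 were lower (Il2ra and Ctla4). Of 29 interferon-induced genes 2 were higher and 5 lower, of 21 immediate early and stress genes none was higher and 5 were lower, and of 19 glycolysis and hypoxia genes none was higher and 3 were lower. In thinned cells these 3 lists had 1 of 14, 2 of 11 and none of 10 tested genes lower.

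Division genes depended on how cells were weighed. In summed UMIs none of 30 cell cycle genes passed 2-fold either way. Mki67 stood at 345 CPM in liver and 284 CPM in primary, and Stmn1 at 567 CPM in liver and 307 CPM in primary. Counted by cells, 19 of 94 liver cells (20.2%, 12.6% to 29.8%) and 10 of 104 primary cells (9.62%, 4.71% to 17.0%) held at least 3 of 10 mitotic genes at 1500 UMIs, and those intervals overlap. The 10 primary cells were deep, with a median of 21104 UMIs and 6 of them over 20000, against a median of 11598 UMIs in the 19 liver cells. With cells over 20000 UMIs left out, 20 of the 30 genes were at least 2-fold higher in liver and none lower, beside 6.43% higher and 7.08% lower of 6031 genes. With the mean over cells, 5 of 30 were higher and none lower, beside 4.36% and 6.81%. Cycling primary cells held less Ccl5 (791 CPM) than the other primary cells (5059 CPM). Cycling liver cells held 2570 CPM beside 5247 CPM in the other liver cells. The cycling cells were also deeper, with 6 of 10 cycling and 13 of 94 other primary cells over 20000 UMIs. In liver their median was 11598 UMIs beside 6367 UMIs in the other cells. Depth and division cannot be told apart in these Ccl5 levels.

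**Figure D3:**
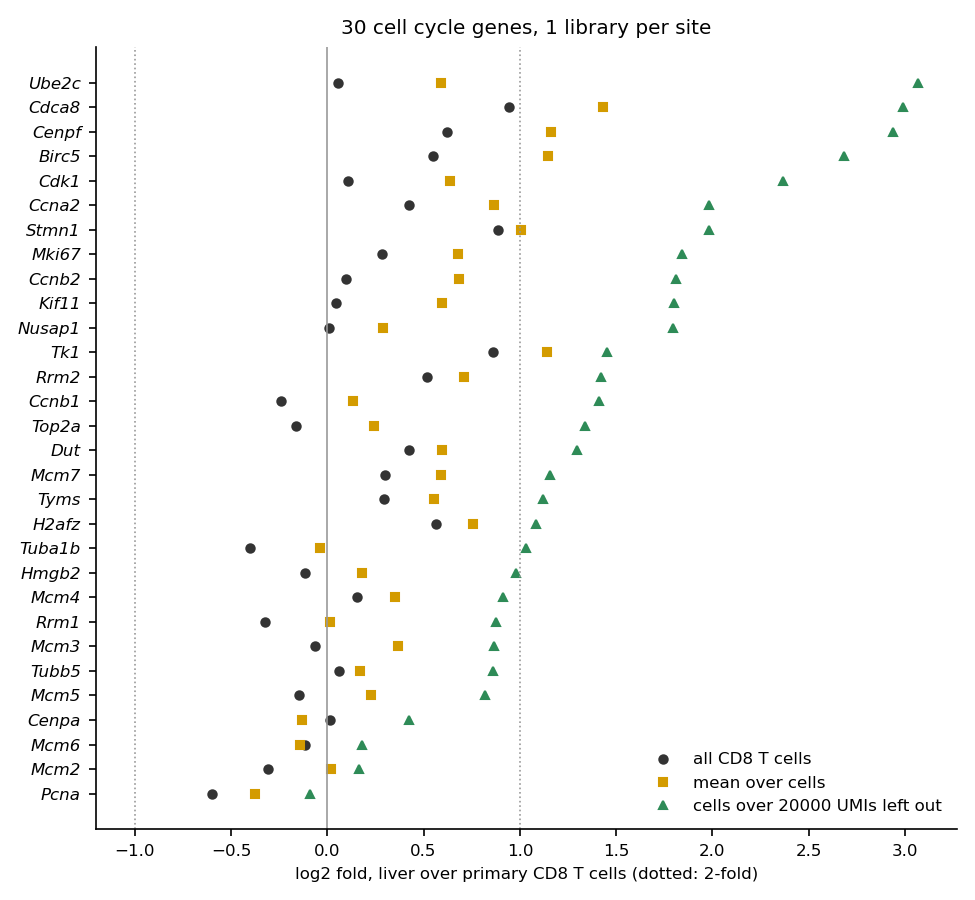
Log2 fold of 30 cell cycle genes, liver over primary CD8 T cells (1 library per site), with all cells summed, as the mean over cells, and with cells over 20000 UMIs left out; dotted lines mark 2-fold. All cells summed lie between -1 and 1 for every gene, and 20 genes lie past 1 once the deep cells, all of them primary, are left out.

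RNA of other cell types was present and differed. The epithelial tumor list summed to 1497 CPM in liver CD8 T cells (5.83 to 36.9 UMIs per 10000 in a cell) and 85.4 CPM in primary (0 to 7.12 per 10000), and all 9 tested members were at least 2-fold higher in liver. Of its 14 genes Cldn4 was at 0 in both groups, and Gkn2 and Msln also in primary. In barcodes with 10 to 100 UMIs, which hold mostly free RNA, the list stood at 6191 CPM in liver and 2676 CPM in primary. The macrophage list summed to 2459 CPM in liver and 1618 CPM in primary, with Apoe and Spp1 its largest members and no member at 0. The B and plasma cell list summed to 163 CPM in liver and 103.6 CPM in primary, against 699 CPM in liver and 826 CPM in primary in the low barcodes. Of its 10 genes 5 were at 0 in liver and 6 in primary, Cd79a and Ms4a1 in both, and Ighm carried most of the sum with 77 UMIs in liver and 133 in primary. Its part in the differences above was not tested. Gzma stood at 10.4 CPM in liver and 0 CPM in primary in the low barcodes, and Ctla4 at 0 CPM in liver and 2.65 CPM in primary, far under their levels in the cells.

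CD8 T cells were next compared with the T cells of the same libraries that had no Cd8a or Cd8b1 UMI, 18 in liver and 11 in primary (median 4029 and 5246 UMIs). This gate was mixed. Cd4 was detected in 9 of its liver and 6 of its primary cells, and 9 and 5 cells held no Cd4 UMI. UMIs were summed per library and gate and the 4 sums were fitted in edgeR's quasi-likelihood test with library as a term, with the genes of the rule left out. The fit has 1 residual degree of freedom and a spread near that of counting, so its adjusted p-values are small. Of 5866 genes 3.0% rose and 2.42% fell in CD8 T cells (176 and 142 genes at a Benjamini-Hochberg adjusted p under 0.05). DESeq2 called 18 and 22 genes, and thinned cells gave 28 and 19. The genes below passed in edgeR, and those that DESeq2 did not call are named as such.

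Ccl5, Nkg7 and Gzma rose in CD8 T cells. Ccl5 stood at 4443 CPM in liver and 4278 CPM in primary CD8 T cells, against 420 and 548 CPM in T cells without Cd8 of liver and primary, a log2 difference of 3.32 (SE 0.21, edgeR adjusted p 2.71e-52, higher in both libraries). Nkg7 stood at 1829 CPM in liver and 2029 CPM in primary CD8 T cells, against 745 and 268 CPM without Cd8 (2.17, SE 0.23, edgeR adjusted p 1.04e-17). Gzma rose by 5.13 (SE 0.50), with 1173 and 159 UMIs in liver and primary CD8 T cells against 4 and 0 UMIs without Cd8. Of 13 tested granule genes 6 rose and none fell (3 and none in DESeq2), with Gzmb (3.85) among them. Prf1 (5.20), Ccl3 (3.06) and Ccl4 (2.25) rose in edgeR but not in DESeq2, with DESeq2 adjusted p of 0.0691, 0.506 and 0.9996. Ccl4 differed little in liver, at 787 CPM in CD8 T cells and 626 CPM without Cd8, with the rule genes left out of the total. In primary it had 2357 UMIs in CD8 T cells and 0 without Cd8. Of 10 tested cytokines and chemokines 4 rose and 2 fell in edgeR, with a median log2 difference of 0.10, and DESeq2 called only Ccl5. Those that fell in edgeR were Lta (-2.99) and Ccl1 (-1.37, edgeR adjusted p 0.0094), and Ifng did not pass at -0.78. Ccl1 had the other sign in DESeq2 (1.58, DESeq2 adjusted p 0.9996), and its direction differed between the libraries. In liver it stood at 27.4 CPM in CD8 T cells and 1070 CPM without Cd8, and in primary at 456 and 0 CPM. Klrd1 rose by 2.46 (SE 0.36) in both tools. In the cell cycle list 23 of 30 rose and none fell (5 and none in DESeq2), with Stmn1 at 567 CPM in liver and 307 CPM in primary CD8 T cells, against 67.7 and 0 CPM without Cd8. Of 14 inhibitory receptors, Lag3 (1.91), Havcr2 (2.26) and Cd244 (2.55) rose in edgeR, and DESeq2 called none of them (adjusted p 0.149, 0.714 and 0.965). Ctla4 fell in both tools (-2.55, SE 0.34). Pdcd1 did not pass at 0.93 (SE 0.35, edgeR adjusted p 0.0979).

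Genes of naive, memory and helper cells fell in CD8 T cells against the mixed gate of T cells without Cd8. Of 13 naive and memory genes 9 fell and none rose (5 and none in DESeq2), with a median log2 difference of -3.08 beside 0.07 over all genes tested. Il7r, the IL-7 receptor, stood at 18.3 CPM in liver and 39.2 CPM in primary CD8 T cells, against 569 and 219 CPM without Cd8 (-3.47, SE 0.36, edgeR adjusted p 8.37e-19). Tcf7 stood at 9.15 CPM in liver and 4.20 CPM in primary CD8 T cells, against 189 and 231 CPM without Cd8 (-4.93, SE 0.55). Tnfrsf4 (OX40), Maf, Rora and Ly6a (Sca-1) fell by 2.84, 3.91, 3.51 and 3.56 on the log2 scale. Trdc, of the delta chain, had 4 UMIs in liver and 14 in primary T cells without Cd8 and 0 in CD8 T cells. It fell in edgeR (-9.15) but not in DESeq2 (adjusted p 0.714). In primary Ctla4 stood at 132 CPM in CD8 T cells and 1157 CPM in T cells without Cd8, and in liver at 28.7 CPM in CD8 T cells and 54.2 CPM in T cells without Cd8.

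**Figure D4:**
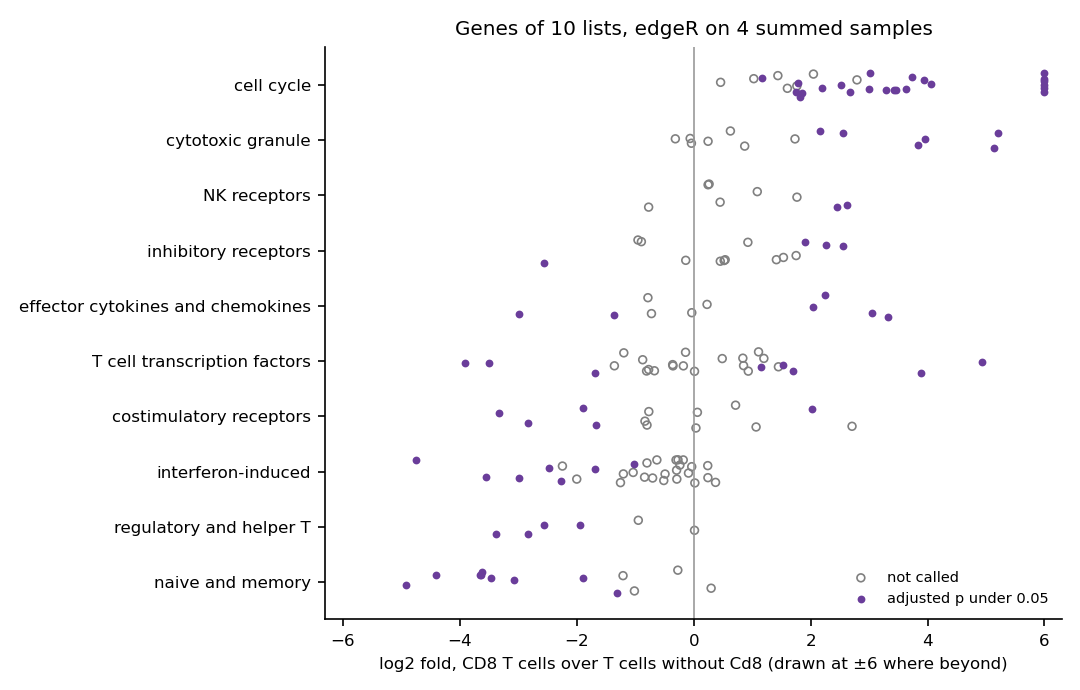
Log2 fold, CD8 T cells over T cells without Cd8, of the tested genes of 10 lists (edgeR, 2 libraries with 2 summed gates each); filled points passed an adjusted p of 0.05, and genes past 6 either way are drawn at 6. The cell cycle and granule genes that passed lie to the right, and the naive, memory, regulatory and helper genes that passed to the left.

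In whole tumors neither CD8 co-receptor gene passed edgeR's quasi-likelihood test between the sites. In bulk, fewer CD8 T cells and less RNA per cell cannot be told apart. Cd8a stood at 4.97, 2.73 and 4.53 CPM in liver tumors and 2.09, 5.20 and 3.66 CPM in primary tumors (log2 0.16, SE 0.42, adjusted p 0.811), and the groups overlapped. Cd8b1 stood at 1.89, 1.64 and 1.28 CPM in liver tumors and 1.18, 1.66 and 1.39 CPM in primary tumors (log2 0.18, SE 0.35, adjusted p 0.739). Over all 16487 genes 16.7% rose and 6.26% fell in liver tumors, which held hepatocyte RNA throughout (10 of 10 marker genes rose), so these shares are the measure for any list.

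In tissue Gzma was higher in every liver tumor than in any primary tumor but did not pass the adjustment. It stood at 2.20, 1.06 and 1.16 CPM in liver tumors and 0.123, 0.277 and 0.870 CPM in primary tumors, so the groups did not overlap (log2 1.77, SE 0.68, edgeR adjusted p 0.100, unadjusted 0.0319). None of 15 tested granule genes passed, and none of 30 cell cycle genes did. Nkg7, Ccl5 and Lag3 did not pass either, with log2 differences of 0.07 (SE 0.45), -0.14 (SE 0.28) and -0.08 (SE 0.36).

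Klrd1, Icos and Hopx, all lower in liver CD8 T cells, rose in liver tumors as a whole. Klrd1 stood at 2.95, 4.37 and 3.42 CPM in liver tumors and 0.959, 1.59 and 1.24 CPM in primary tumors (log2 1.504, SE 0.36, edgeR adjusted p 0.0188). Icos stood at 3.56, 3.18 and 2.44 CPM in liver tumors and 0.566, 0.589 and 0.796 CPM in primary tumors (log2 2.22, SE 0.36, edgeR adjusted p 0.00318). Hopx averaged 40.02 ± 16.6 CPM in liver tumors and 0.886 ± 0.223 CPM in primary tumors (SD, n = 3 each; log2 5.49, edgeR adjusted p 5.48e-05). T cells without Cd8 also held these genes: Klrd1 stood at 162 CPM in liver and 60.9 CPM in primary there, and Hopx at 94.8 CPM in liver and 170.5 CPM in primary. Which cells of the tissue carried the bulk values was not tested. Ctla4 did not pass in bulk (log2 0.39, SE 0.42, edgeR adjusted p 0.545). Among T cell lists, 6 of 22 receptor signaling genes, 5 of 20 inhibitory receptors, 4 of 14 costimulatory receptors and 6 of 16 naive and memory genes rose, with none of these lists' genes falling. Of 38 interferon-induced genes 22 rose and none fell, of 22 residency and homing genes 12 rose and 2 fell, and of 29 transcription factors 9 rose and 3 fell. B and plasma cell genes (7 of 10) and dendritic cell genes (8 of 10) rose in the same tissue, and their part in these counts was not tested.

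**Figure D5:**
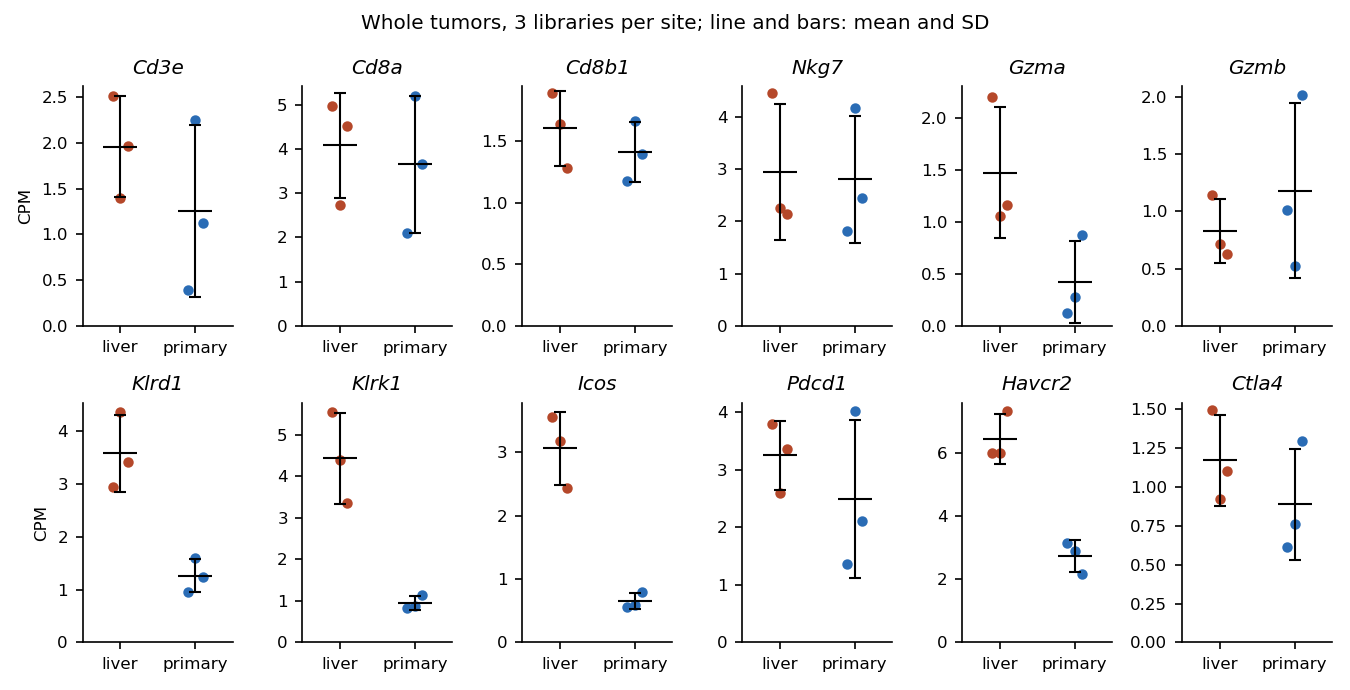
CPM of 12 genes in whole tumors, liver (left, 3 libraries) and primary (right, 3 libraries); points are libraries, lines the mean and bars the SD. Cd3e, Cd8a and Cd8b1 overlap between the sites, and Klrd1, Klrk1, Icos and Havcr2 lie higher in every liver library.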

How the data were processed

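Bulk RNA-seq was deposited by the authors as raw read counts per gene for 6 tumors, and the single-cell data as UMI counts for 31053 genes and 6794880 listed barcodes per library. Per the labels, Cell Ranger, bcl2fastq and mm10 were named without a role. The files' headers carry Cell Ranger's matrix format, and the aligner and counter of the bulk data are not given in the sources used here. The labels name 3' v2 reagents, while the barcode list is longer than that kit's, so the kit is uncertain.

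The members, gene lists and named genes were chosen with earlier results of these data known. Some listed genes are not reported here. Named genes were the 8 largest folds each way between the sites (intervals apart, at least 2 times the level of low barcodes), the 10 smallest p-values each way against T cells without Cd8, the 3 highest and 2 most different members of each of 16 T cell lists, and a fixed set. The 5 rule genes and other genes of the gate were left out of every count of genes in the single-cell data. The bulk fit kept them, so the bulk shares over all genes include them.

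UMIs were summed per library and gate. A gene was tested with at least 30 UMIs over both libraries, and a library at 0 was set to 3 counts for a fold. Shares were also taken after thinning each cell to 1500 UMIs without replacement (numpy 2.4.6). CD8 T cells were set against T cells without Cd8 in edgeR 4.0.16 (R 4.3.3). Bulk counts were fitted in edgeR with filterByExpr, TMM normalization and robust quasi-likelihood fitting of site, with Benjamini-Hochberg adjustment at 0.05. Scripts were tested on simulated data. DESeq2 1.42.0 and limma-voom (limma 3.58.1) were alternatives. Scrublet (scanpy 1.11.5, expected rate 6%) marked 1 of 7618 liver and 5 of 2277 primary barcodes and no member. So few marks mean that it did not work in the liver library, and doublets were not removed. The printed windows come from RefSeq GRCm38.p6, which shares its coordinates with mm10.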

Additional observations from a re-analysis of the deposited data

Results flagged for a closer look

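Ccl1 ran in opposite directions in the 2 libraries when CD8 T cells were set against T cells without Cd8. In the liver library it stood at 27.4 CPM in CD8 T cells and 1070 CPM in T cells without Cd8. In the primary library it stood at 456 CPM in CD8 T cells and 0 CPM in T cells without Cd8. In liver, 1 cell of the 18 without Cd8 carried all 79 Ccl1 UMIs of that gate, and in primary 652 came from 12 CD8 T cells. The difference between the libraries was not tested.

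Trbc1, the first of the constant segments of the receptor beta chain, did the same. It stood at 1043 CPM in liver CD8 T cells and 623 CPM in liver T cells without Cd8, but at 725 CPM in primary CD8 T cells and 1218 CPM in primary T cells without Cd8. This difference was not tested either.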

How the results depend on the processing

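Between the sites, at least 60 UMIs gave 65 higher and 137 lower, thinned cells 63 and 94, and the mean over cells 304 higher. Leaving out barcodes over 20000 UMIs, chosen after seeing the data, gave 388 higher. It turned Xcl1 to 0.30 and Itgae to 1.14. Tyrobp turned to -0.23 without the C1q and keratin limits, and Spg20 to -0.44 in thinned cells. The liver CD8 share of called cells was 0.917% with a minimum of 1000 UMIs and 1.76% with 3000, and the share of liver T cells was 66.5% without the limits. The causes were not tested. Against T cells without Cd8, edgeR without the library term gave 39 higher and 43 lower, thinned cells 28 and 19, and DESeq2 18 and 22. No filter gave 78 lower, and no C1q and keratin limits 278 lower.

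Leaving out each bulk library in turn gave 1810 to 3346 genes higher in liver tumors and 134 to 1468 lower; fewer lower genes were left without liver replicate 1 (414), liver replicate 2 (134, with 1810 higher) and primary replicate 3 (606). Same-numbered bulk libraries deviated with correlations of -0.18, 0.25 and 0.09 and were not treated as paired, and with the replicate number as a block 2703 genes were higher and 873 lower. None of the bulk genes that turned sign had passed the test: with 1 library left out, log2 differences ran from -0.12 to 0.50 for Cd8a, -0.36 to 0.46 for Nkg7, -0.88 to 0.0898 for Gzmb, -0.10 to 0.66 for Tnf, -0.45 to 0.0707 for Ccl4, -0.28 to 0.0528 for Ccl5, -0.41 to 0.13 for Lag3, -0.22 to 0.0876 for Tigit, -0.44 to 0.0713 for Tcf7, -0.16 to 0.63 for Lef1, -0.0407 to 0.85 for Cxcr6 and -0.0626 to 0.37 for Mki67. Genes under 30 summed UMIs were not compared.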
